A study of Brassica napus with 27 samples.

Results

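Leaves of oilseed rape (Brassica napus, winter cultivar Visby) were compared 2 h after treatment with the auxinic herbicide halauxifen-methyl (Hal) or with picloram (Pic). The comparison rests on 6 of the 27 RNA-seq libraries, namely 3 libraries of Hal leaves and 3 of Pic leaves, and on 46395 of 104573 genes. These are the genes that reached an FPKM (read number scaled to gene length and library size) of 1 or more in 3 or more libraries. Hal leaves had received 0.5 µg and Pic leaves 2.4 µg. The study's methods give these amounts for a plant, whereas the labels attach the same numbers to a leaf or to a µl. The doses differed, so compound and dose cannot be told apart in any difference given here. Control leaves of the same harvest (3 libraries) had received the solvent according to the design text, although a label field calls them untreated, and they are given as the background level. All plants were grown at 15 °C and treated at growth stage BBCH11, with the solution pipetted onto the leaves, and the labels describe the replicates as separate plant material. All 43 chlorophyll a-b binding protein genes with reads were summed to check the tissue, which gave 76370 to 79760 FPKM in Hal leaves, 79070 to 92110 FPKM in Pic leaves and 84150 to 91060 FPKM in control leaves. The 11 Rubisco small chain genes went the other way between the herbicides. They summed to 26530 to 30360 FPKM in Hal leaves, 23200 to 24800 FPKM in Pic leaves and 27830 to 29370 FPKM in control leaves. The oleosin genes of seeds summed to at most 0.622 FPKM in these libraries. The searches for cruciferin or napin and for pollen genes found 0 genes each. In whole leaves, fewer cells of a type and less RNA per cell cannot be told apart.

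Both compounds are synthetic auxins with a pyridine carboxylic acid core and are used against broad-leaved weeds in oilseed rape. Hal carries a substituted phenyl ring in the place of a chlorine of Pic, has a hydrogen in the place of another, and was supplied as a methyl ester. Auxins join the F-box receptors TIR1 and AFB to the Aux/IAA repressors, the repressors are degraded, and auxin response factors then switch on early genes such as the Aux/IAA genes themselves, the SAUR growth regulators and the GH3 conjugating enzymes. In dicot weeds an excess of this signal is followed by ethylene and abscisic acid synthesis. WRKY factors, glutathione transferases and glycosyltransferases belong to the early stress and detoxification response of leaves.

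Replicate 3 of the Hal group stood apart from the others. It had reads on 53523 genes, whereas Hal replicates 1 and 2 had reads on 59104 and 59970 genes and the Pic libraries on 59891 to 60639 genes. It also held 1138 genes with exactly 1 read, while the other 5 libraries held between 3411 and 3568 such genes. Pearson's r of log2(FPKM + 1) across genes was between 0.961 and 0.983 within the Hal group, between 0.973 and 0.980 within the Pic group and between 0.935 and 0.954 for a Hal and a Pic library. In Hal replicate 3, genes of up to 732 bases were higher than in the other Hal libraries by a median of 0.06 on the log2 scale, and genes above 2003 bases were lower, with a median of -0.10. The calls of Hal against Pic, the counts of the gene lists, the chromosome windows and the comparison with later harvests were therefore also computed without this library. The counts of calls against the control and of non-overlapping genes were not. The totals of the 27 libraries were between 15565637 and 19692242 reads.

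The transcriptomes of Hal and Pic leaves differed in 9408 of the 46395 genes (20.3%) at a limma adjusted p under 0.05. Of these, 4194 genes (9.04%) were higher and 5214 genes (11.2%) lower after Hal than after Pic. Without Hal replicate 3, 8364 genes differed (18.0%), of which 3488 were higher (7.52%) and 4876 lower (10.5%), and 7138 of the original calls (75.9%) were kept. A fit on the 6 libraries alone, without the spread of the other groups, called 4717 genes (10.2%), with 4.13% of all genes higher and 6.04% lower. The 3 Hal libraries lay all above or all below the 3 Pic libraries in 14449 genes (31.1%), with 14.9% of all genes on the higher and 16.2% on the lower side. The large differences were mostly in the direction of lower values in Hal leaves. When a size of 1 or more was also asked of the log2 fold change, 1643 genes were left (3.54%), 348 higher (0.750%) and 1295 lower (2.79%). Log2 fold changes are differences of log2(FPKM + 1), Hal minus Pic, with a median standard error of 0.16, and for genes of low FPKM they understate the ratio of FPKM. The median over all tested genes was -0.001.

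The solvent leaves show on which side a gene had moved, with the reservation that both herbicide groups are set against the same 3 control libraries. In these comparisons, 10.1% of all tested genes were higher and 11.4% lower in Hal leaves than in control leaves, and 10.7% were higher and 9.37% lower in Pic leaves than in control leaves. Of the 5214 genes lower after Hal than after Pic, 1831 were above the control in Pic leaves and not called in Hal leaves. Another 1423 were below the control in Hal leaves and not called in Pic leaves, and 286 were called in opposite directions. Of the 4194 genes higher after Hal, 1474 were above the control in Hal leaves and not called in Pic leaves, 1062 were below the control in Pic leaves and not called in Hal leaves, and 129 were called in opposite directions. Neither call against the control was reached by 1187 of the higher and 1029 of the lower genes. These counts against the control include Hal replicate 3 and were not repeated without it.

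Ferritins, the plastid proteins that store iron, took the first and the third place among described genes by log2 fold change. BnaA09g35560D had 38.5, 44.2 and 52.1 FPKM in Hal leaves, against 9.74, 10.4 and 8.03 FPKM in Pic leaves and 19.2, 17.0 and 16.5 FPKM in control leaves. All Hal libraries lay above the control and all Pic libraries below it, and the log2 fold change was 2.14 (SE 0.11, limma adjusted p = 8.38e-13, 2.03 without Hal replicate 3). BnaA03g00260D had 95.9, 97.9 and 96.7 FPKM in Hal leaves, 27.6, 23.2 and 22.9 FPKM in Pic leaves and 72.6, 77.5 and 72.9 FPKM in control leaves. Its groups did not overlap, and the log2 fold change was 1.94 (SE 0.07, limma adjusted p = 7.22e-16). BnaA09g35550D, the neighbour of BnaA09g35560D on chromosome A09, was low, with 3.03, 4.39 and 4.49 FPKM in Hal leaves, 0.692, 0.740 and 1.21 FPKM in Pic leaves and 2.22, 2.66 and 4.33 FPKM in control leaves (log2 fold change 1.40, SE 0.25, limma adjusted p = 0.00022). The 2 genes are copies of a family, and reads shared between copies make their separate values uncertain.

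The other ferritin genes were looked up after these values had been seen. All 8 tested ferritin genes were higher after Hal than after Pic, with or without Hal replicate 3 and also in the fit on the 6 libraries alone, with log2 fold changes from 0.74 to 2.14 and a median of 1.27. None was lower at an unadjusted p under 0.05 or with limma voom (0 of 8 each). BnaA07g16710D had 96.1, 102.7 and 99.8 FPKM in Hal leaves, against 30.1, 28.7 and 24.6 FPKM in Pic leaves and 68.1, 70.8 and 68.6 FPKM in control leaves. BnaC06g15730D had 77.4, 75.3 and 55.9 FPKM in Hal leaves, 32.1, 29.3 and 30.7 FPKM in Pic leaves and 84.1, 83.1 and 79.7 FPKM in control leaves, so that both herbicide groups were below the control. BnaC03g00160D showed the other form, with 77.5, 73.7 and 80.8 FPKM in Hal leaves, 42.6, 42.1 and 36.9 FPKM in Pic leaves and 41.6, 47.8 and 45.1 FPKM in control leaves. The Pic group was thus below the control in the first 2 of these genes, and only in BnaC03g00160D did it overlap with the control. BnaC08g27000D had 28.3, 29.1 and 36.7 FPKM in Hal leaves, 19.3, 17.5 and 18.1 FPKM in Pic leaves and 37.8, 41.7 and 43.1 FPKM in control leaves, so that both herbicide groups were below the control. BnaC04g48390D had 28.6, 30.4 and 32.7 FPKM in Hal leaves, 18.4, 16.1 and 14.0 FPKM in Pic leaves and 31.1, 32.8 and 33.0 FPKM in control leaves, so that the Hal group overlapped with the control and the Pic group was below it. The median of the 8 genes relative to the control mean was 0.19, 0.42 and 0.42 in the Hal libraries and -1.11, -1.18 and -1.14 in the Pic libraries.

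**Figure D1:**
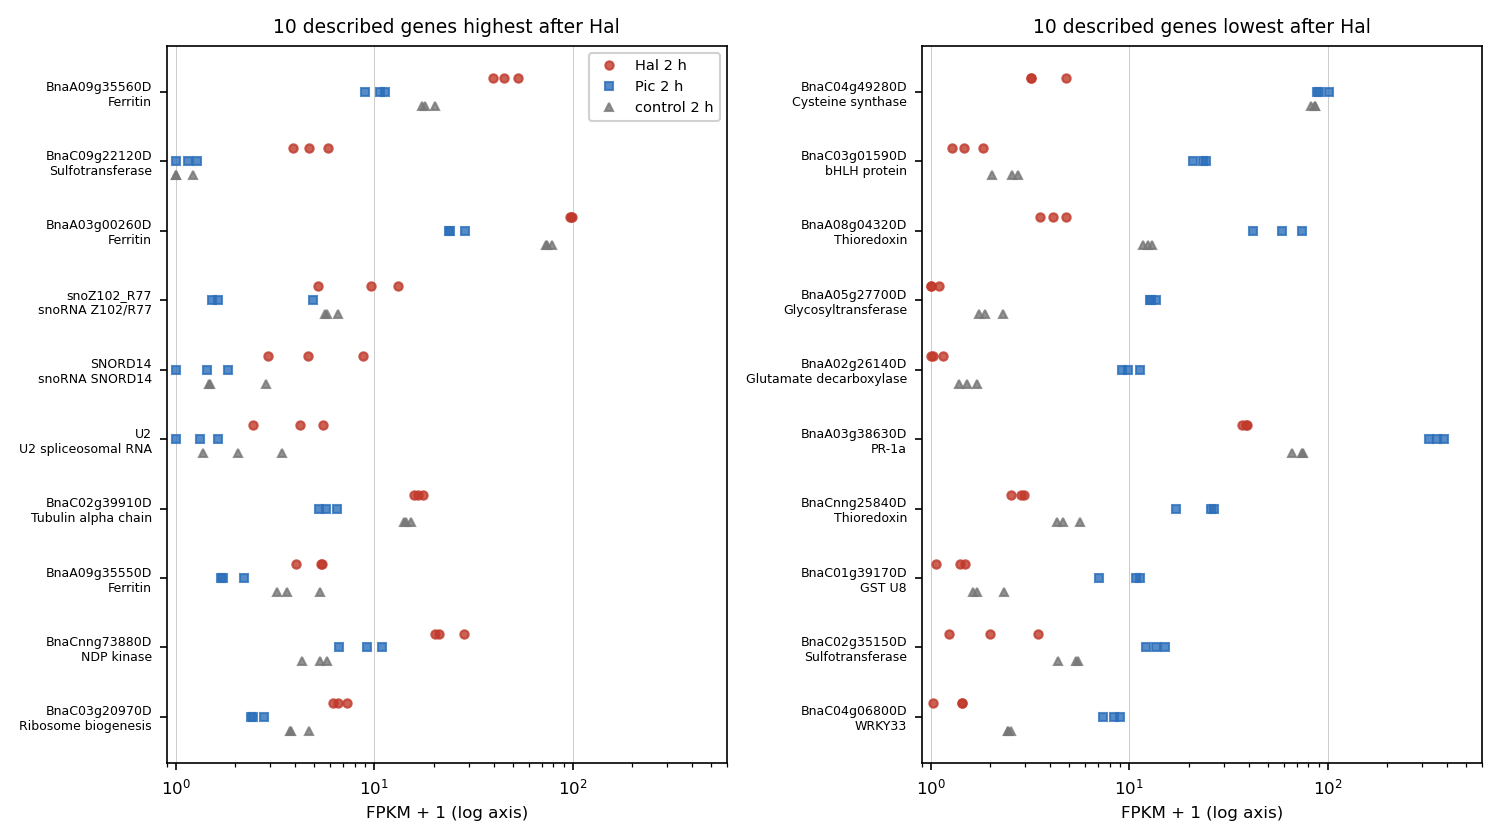
FPKM + 1 on a log axis in each library at 2 h for the 10 described genes with the largest and the 10 with the smallest log2 fold change. Points are the 3 libraries of Hal (circles, upper line of each gene), Pic (squares) and control (triangles), and in all 20 genes the Hal points and the Pic points do not overlap.

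Of the other described genes with the largest differences, a tubulin alpha chain gene, BnaC02g39910D, encodes a subunit of microtubules. It had 16.7, 15.7 and 14.9 FPKM in Hal leaves, against 5.46, 4.72 and 4.29 FPKM in Pic leaves and 13.4, 14.3 and 13.2 FPKM in control leaves, so that all Hal libraries were above and all Pic libraries below the control (log2 fold change 1.53, SE 0.12, limma adjusted p = 1.18e-09). A sulfotransferase gene, BnaC09g22120D, had 2.90, 3.68 and 4.84 FPKM in Hal leaves, and it was close to 0 in Pic leaves with 0, 0.147 and 0.278 FPKM and in control leaves with 0, 0 and 0.217 FPKM (log2 fold change 2.06, SE 0.19, limma adjusted p = 1.08e-08). BnaCnng73880D, a nucleoside diphosphate kinase that balances the pools of nucleoside triphosphates, was above the control after either herbicide. Hal leaves had 19.2, 20.1 and 27.3 FPKM, Pic leaves 9.89, 8.17 and 5.64 FPKM and control leaves 3.33, 4.79 and 4.36 FPKM (log2 fold change 1.40, SE 0.18). BnaC03g20970D, described as a ribosome biogenesis regulatory protein, had 5.20, 6.31 and 5.54 FPKM in Hal leaves, 1.45, 1.39 and 1.80 FPKM in Pic leaves and 2.83, 3.69 and 2.76 FPKM in control leaves (log2 fold change 1.39, SE 0.15).

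The rule also named 3 short RNA genes, the small nucleolar RNAs snoZ102_R77 and SNORD14 and the spliceosomal RNA U2. They rested on few reads, namely 45, 29 and 28 in the Hal group and 9, 3 and 3 in the Pic group. Such RNAs have several near-identical copies, so their counts are uncertain. The log2 fold change of snoZ102_R77 was 1.92 (SE 0.55, limma adjusted p = 0.015), and this call was lost without Hal replicate 2, Pic replicate 1 or Pic replicate 3 (highest limma adjusted p 0.075) and with the 6 libraries alone (0.063).

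Genes of the translation machinery were shifted towards Hal. Of 219 tested ribosomal protein genes, 93 were higher and 5 lower after Hal than after Pic, with a median log2 fold change of 0.34, beside 9.04% higher and 11.2% lower among all genes. Without Hal replicate 3, 64 were higher and 5 lower, with a median of 0.24, and with the 6 libraries alone 55 were higher and 1 lower. Relative to the control mean, the median of the list was -0.06, -0.00 and 0.17 in the Hal libraries and -0.17, -0.32 and -0.46 in the Pic libraries. The highest value thus came from Hal replicate 3, in which short genes were high, and the median length of these genes was 831 bases. The part of gene length in this difference was not tested. BnaA04g20190D, the 60S ribosomal protein L18a, did not depend on that library, with 150.3, 148.8 and 143.8 FPKM in Hal leaves, against 85.8, 91.0 and 91.2 FPKM in Pic leaves and 123.8, 133.9 and 136.9 FPKM in control leaves. Its Hal libraries were all above and its Pic libraries all below the control (log2 fold change 0.72, SE 0.07, limma adjusted p = 5.46e-08, 0.74 without Hal replicate 3). The 40S ribosomal protein S4 gene BnaA03g55550D and the ribosomal protein L15 gene BnaAnng13420D, both chosen after their values were seen, had log2 fold changes of 0.66 (SE 0.08) and 0.67 (SE 0.08).

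The aminoacyl-tRNA ligases, which load amino acids onto their tRNAs, are longer genes and showed the same direction. Of 57 tested genes, 22 were higher with limma (38.6%, beside 9.04% of all genes). The number lower was 0, beside 11.2% of all genes (0 also at an unadjusted p under 0.05 and with limma voom). The median log2 fold change was 0.28. Without Hal replicate 3 it was 0.32 with 21 genes higher, beside 7.52% of all genes. With the 6 libraries alone 9 were higher, beside 4.13% of all genes. In this list the Hal libraries lay above the control, with medians of 0.37, 0.35 and 0.29 relative to the control mean, whereas the Pic libraries had -0.00, 0.04 and 0.09. BnaC08g15130D, a ligase by its tRNA-synt_2b domain, had 2.49, 1.90 and 2.21 FPKM in Hal leaves, against 0.335, 0.252 and 0.397 FPKM in Pic leaves and 0.0893, 0.262 and 0.418 FPKM in control leaves (log2 fold change 1.27, SE 0.14, limma adjusted p = 4.25e-07). A pair of related lists was formed after the values had been seen. Among 65 tested genes with the GTP_EFTU domain of translation factors, 28 were higher (43.1%) and 1 lower (1.54%), with a median of 0.35. Without Hal replicate 3 these were 27 and 0. Among 138 tested DEAD-box RNA helicases, which act in ribosome assembly and RNA processing, 47 were higher (34.1%) and 4 lower (2.90%), with a median of 0.26, and without Hal replicate 3 these were 44 and 2. An elongation factor Tu gene, BnaC09g00290D, had 8.18, 8.43 and 11.04 FPKM in Hal leaves, 4.87, 4.69 and 4.95 FPKM in Pic leaves and 7.31, 6.27 and 5.90 FPKM in control leaves.

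**Figure D2:**
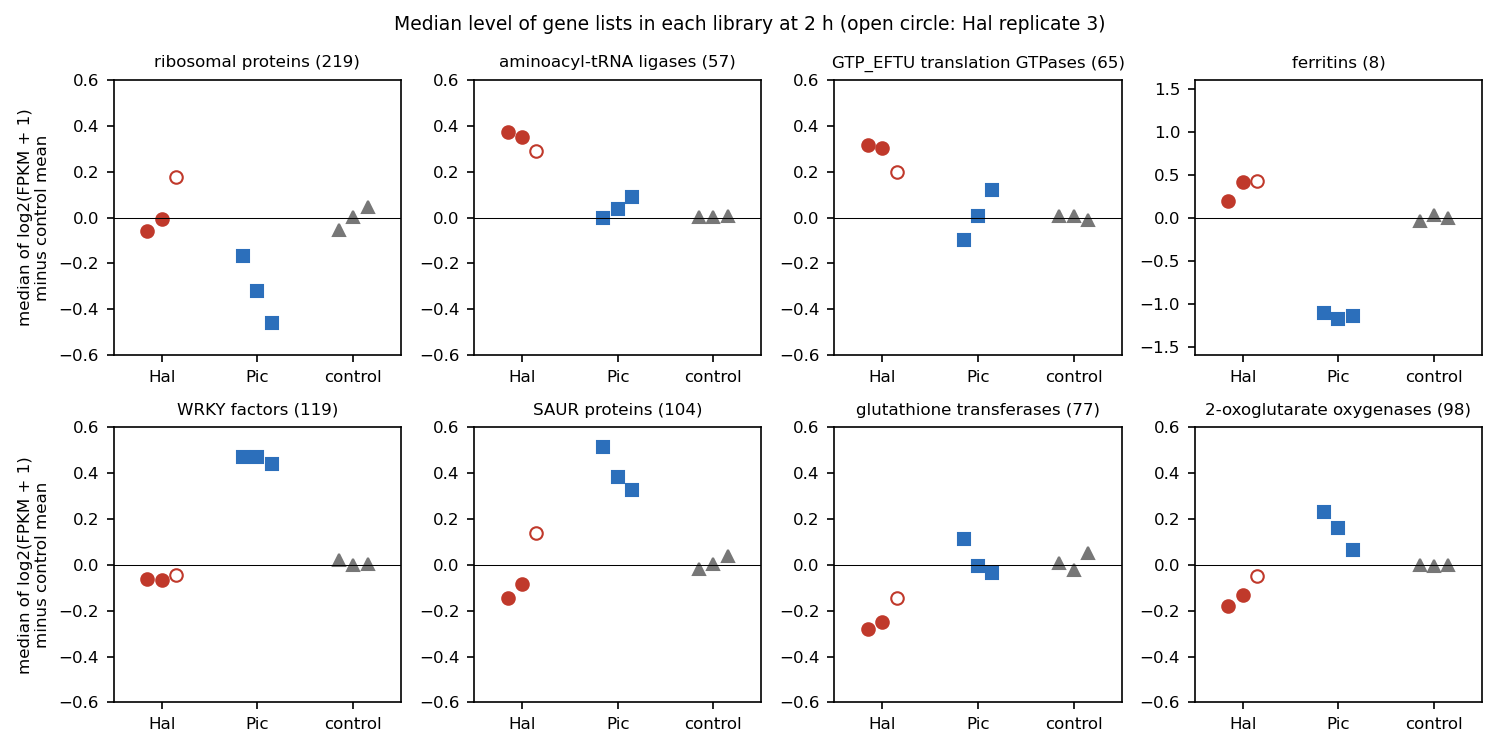
Median of log2(FPKM + 1) minus the mean of the control libraries over the tested members of 8 gene lists (number of members in parentheses), one point a library at 2 h, with Hal replicate 3 as an open circle. Ribosomal protein and ferritin genes lie below the control in the Pic libraries, and aminoacyl-tRNA ligase and GTP_EFTU genes lie above it in the Hal libraries. WRKY and SAUR genes lie above it in the Pic libraries. The ferritin panel has a wider axis than the other 7.

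Response regulators of the circadian clock and of cytokinin signalling carry a receiver domain. Of 73 tested genes with this domain, 18 were higher after Hal (24.7%, beside 9.04% of all genes) and 6 lower (8.22%, beside 11.2%). Without Hal replicate 3 these were 16 and 5. The median was 0.09, and 0.02 without Hal replicate 3. BnaC07g29960D, described as the pseudo-response regulator APRR5 of the clock, was far above the control after either herbicide, with 25.6, 25.2 and 22.8 FPKM in Hal leaves, 11.8, 9.75 and 12.2 FPKM in Pic leaves and 2.84, 2.93 and 2.51 FPKM in control leaves (log2 fold change 1.06, SE 0.10, limma adjusted p = 1.42e-08). The 3 groups did not overlap. Undescribed members with the same order were BnaA03g40160D, BnaCnng43250D and BnaA06g26980D, which were chosen after their values were seen and had log2 fold changes of 1.19, 1.22 and 0.91. The CCT and B-box genes of light and flowering responses were less uniform, with 18 higher (18.95%) and 15 lower (15.8%) of 95 tested. BnaC06g25850D, a CCT domain gene, had 42.7, 44.0 and 49.97 FPKM in Hal leaves, against 31.0, 25.9 and 23.6 FPKM in Pic leaves and 23.2, 25.3 and 24.3 FPKM in control leaves (log2 fold change 0.75, SE 0.10). Time of day at harvest was not analysed here, and its part in these values was not tested. Of the 9 cytokinin activation and response regulator genes found by description, 1 was higher, namely BnaA02g25910D with a log2 fold change of 0.55 (SE 0.17, limma adjusted p = 0.021, and 0.105, 0.093 and 0.053 without Pic replicate 1, Hal replicate 1 and Hal replicate 2). None of the 4 phytochrome and cryptochrome genes was called (0 of 4 also at an unadjusted p under 0.05 and with limma voom).

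Of the SAUR and Aux/IAA genes that were called, nearly all were lower after Hal than after Pic, although most members were not called. Of 104 tested SAUR genes, found by the Auxin_inducible domain, 44 were lower (42.3%, beside 11.2% of all genes) and 1 higher (0.962%, beside 9.04%). The median log2 fold change was -0.44, and without Hal replicate 3 the counts were the same with a median of -0.50. Relative to the control mean, the median of the list was -0.14, -0.08 and 0.14 in the Hal libraries and 0.52, 0.38 and 0.33 in the Pic libraries, so the 2 groups did not overlap. BnaA03g45460D was at 0, 0.202 and 0 FPKM in Hal leaves, against 8.52, 7.12 and 5.59 FPKM in Pic leaves and 0.474, 1.04 and 0.740 FPKM in control leaves (log2 fold change -2.91, SE 0.21, limma adjusted p = 2.47e-10). Only 2 reads stood behind the Hal values and 184 behind the Pic values. BnaC07g37400D, chosen after its values were seen, was similar with 0, 0.101 and 0 FPKM in Hal leaves, 6.48, 5.57 and 4.43 FPKM in Pic leaves and 1.18, 0.463 and 0.617 FPKM in control leaves. The SAUR genes were short, with a median length of 492.5 bases, and in the fit on the 6 libraries alone 27 were lower and 1 higher.

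Of 62 tested Aux/IAA genes, which encode the repressors of auxin signalling, 14 were lower (22.6%, beside 11.2% of all genes) and 1 higher (1.61%, beside 9.04%). The median log2 fold change was -0.20. Without Hal replicate 3 these were 17 and 1, beside 10.5% lower among all genes. With the 6 libraries alone they were 5 and 1, beside 6.04% lower among all genes. BnaA05g16700D had 9.56, 11.4 and 16.5 FPKM in Hal leaves, against 43.2, 34.1 and 26.7 FPKM in Pic leaves and 9.91, 9.97 and 8.71 FPKM in control leaves (log2 fold change -1.41, SE 0.17, limma adjusted p = 1.01e-06). All Pic libraries of this gene were above all others, and the Hal group overlapped with the control. The Aux/IAA gene BnaC05g29330D, chosen after its values were seen, was above the control after either herbicide, with 19.8, 18.7 and 27.6 FPKM in Hal leaves, 40.9, 36.4 and 28.7 FPKM in Pic leaves and 9.02, 12.0 and 11.6 FPKM in control leaves. The single member called in the other direction, BnaC09g21260D, had 3.36, 2.80 and 3.13 FPKM in Hal leaves, 1.16, 1.24 and 0.827 FPKM in Pic leaves and 2.63, 2.00 and 1.86 FPKM in control leaves (log2 fold change 0.98, SE 0.18).

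The other lists of the auxin pathway cover response factors, efflux carriers and synthesis enzymes. Of 34 auxin response factor genes, 2 were higher (5.88%, beside 9.04% of all genes) and 2 lower (5.88%, beside 11.2%). Their median was 0.15 (3 and 1 without Hal replicate 3). The one with the smallest p was BnaA07g13830D with 1.39, 1.73 and 1.16 FPKM in Hal leaves, 3.55, 2.76 and 3.61 FPKM in Pic leaves and 0.970, 1.14 and 1.19 FPKM in control leaves (log2 fold change -0.83, SE 0.16). Among 10 efflux carrier genes, 1 was called, as higher, which is close to the 9.04% of all genes. This was BnaC06g43740D with 13.2, 14.4 and 10.7 FPKM in Hal leaves, 5.29, 6.43 and 8.55 FPKM in Pic leaves and 4.17, 4.76 and 4.45 FPKM in control leaves (log2 fold change 0.84, SE 0.22, limma adjusted p = 0.0071). Both herbicide groups were above the control in this gene. The medians of all 10 carriers relative to the control mean were 0.69, 0.69 and 0.52 in the Hal libraries and 0.43, 0.42 and 0.67 in the Pic libraries, which overlap. Genes were listed for auxin synthesis by terms for tryptophan or flavin monooxygenase, which does not show that each acts in it. Of these 14 genes, 4 were lower (28.6%) and 1 higher (7.14%). Among them the flavin monooxygenase gene BnaC05g14910D had no read in any Hal library, 3.03, 3.50 and 3.53 FPKM in Pic leaves and 0.0689, 0.0336 and 0 FPKM in control leaves, which puts it at least 102-fold lower in Hal than in Pic leaves against a floor of 3 reads over the Hal group. Genes of the GH3 family could not be found by description or domain (0 genes).

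The lists of the other hormones differed among themselves. Their counts stand beside 11.2% lower and 9.04% higher among all tested genes, and 10.5% and 7.52% without Hal replicate 3. Of 219 AP2 domain factors, to which the ethylene response factors belong, 52 were lower (23.7%) and 15 higher (6.85%). Without Hal replicate 3 these were 45 and 7. BnaC09g20090D of this family had 0.258, 0.213 and 0.0632 FPKM in Hal leaves, against 4.10, 4.12 and 4.12 FPKM in Pic leaves and 1.06, 0.794 and 1.04 FPKM in control leaves (log2 fold change -2.12, SE 0.13, limma adjusted p = 1.11e-11). Of 19 genes of ethylene synthesis, perception and signalling, 3 were lower (15.8%) and 2 higher (10.5%), and 5 and 0 without Hal replicate 3. The signalling gene BnaA03g22560D, listed by its EIN3 domain, had a log2 fold change of -0.74 (SE 0.12). Of 56 jasmonate synthesis and TIFY genes, 14 were lower (25.0%) and 5 higher (8.93%), and 15 and 4 without Hal replicate 3. In the shifted chromosome segments given further on lay 9 of the 56. BnaC03g71460D, a TIFY repressor gene by its Zim domain, had no read in Hal leaves, 1.32, 1.84 and 1.58 FPKM in Pic leaves and 1.29, 1.86 and 1.15 FPKM in control leaves, so that it was at least 26.9-fold lower in Hal than in Pic leaves against a floor of 3 reads over the Hal group. Among 14 genes listed for abscisic acid synthesis by description or domain, 1 was lower (7.14%) and 0 higher (1 higher at an unadjusted p under 0.05, 0 with limma voom). The lower gene was BnaAnng12520D, listed only by its RPE65 domain of carotenoid oxygenases. It had 57.6, 62.1 and 59.4 FPKM in Hal leaves, 74.4, 81.4 and 76.5 FPKM in Pic leaves and 59.9, 56.8 and 56.6 FPKM in control leaves (log2 fold change -0.37, SE 0.07). Of 169 protein phosphatase 2C genes, some of which restrain abscisic acid signalling, 33 were lower (19.5%) and 10 higher (5.92%). Without Hal replicate 3 these were 32 and 3. BnaA10g26970D of this list had 0.644, 0.399 and 0.512 FPKM in Hal leaves, 2.64, 3.01 and 2.498 FPKM in Pic leaves and 0.468, 0.0762 and 0.162 FPKM in control leaves. The gibberellin-regulated BnaAnng38970D was lower (log2 fold change -1.09, SE 0.15).

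**Figure D3:**
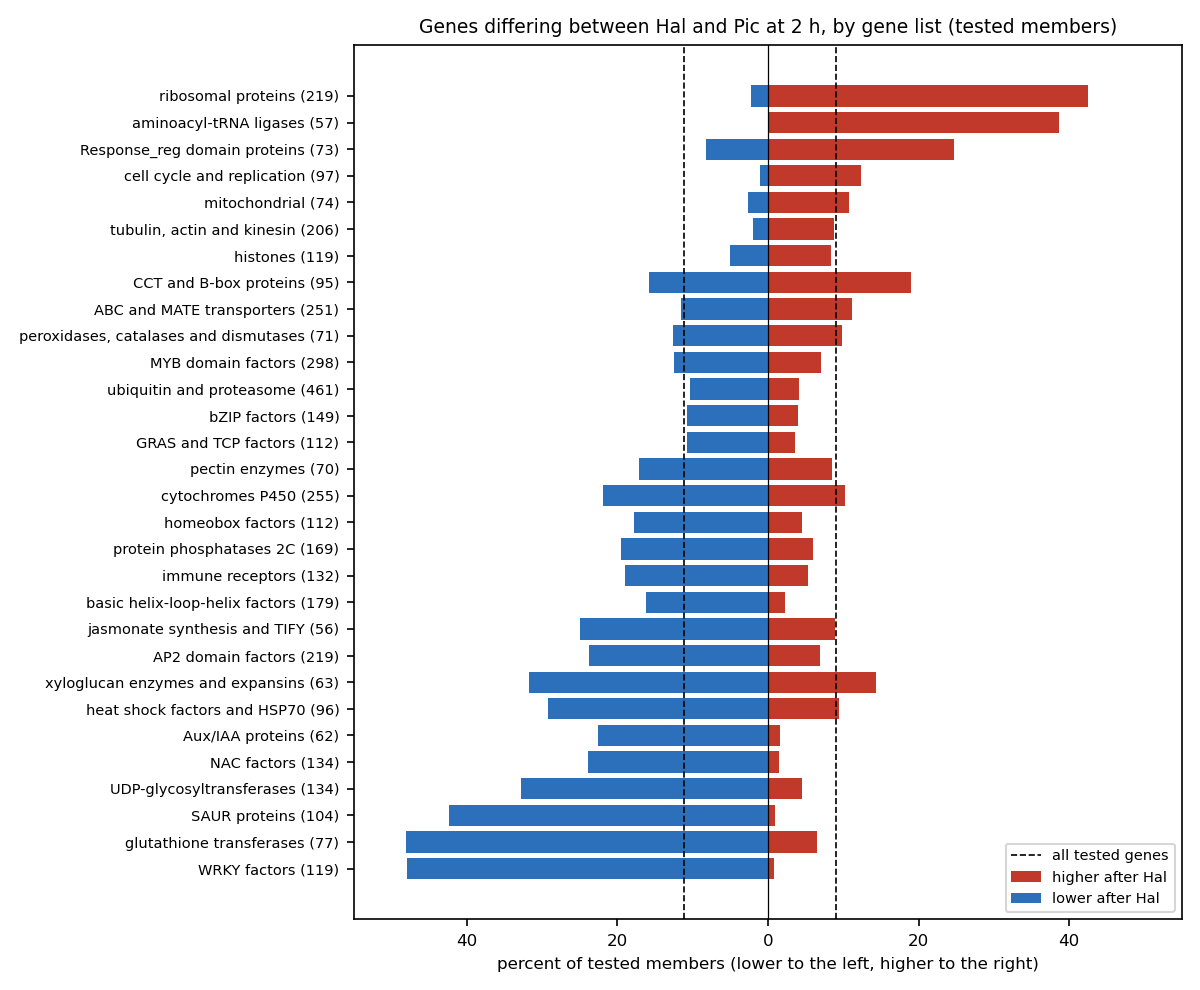
Percent of tested members higher (right) and lower (left) after Hal than after Pic at 2 h, limma adjusted p under 0.05, for the 30 gene lists with at least 50 tested members (number in parentheses). Dashed lines mark the shares over all tested genes, 9.04% higher and 11.2% lower. Ribosomal protein genes extend farthest to the right with 42.5%, and glutathione transferase (48.1%), WRKY (47.9%) and SAUR genes (42.3%) extend farthest to the left.

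WRKY factors, which switch on defence genes, were the transcription factor family with the highest share of lower members. Of 119 tested genes 57 were lower (47.9%, beside 11.2% of all genes) and 1 higher (beside 9.04%), with a median log2 fold change of -0.47. In 65 genes the Hal libraries lay below all Pic libraries, beside 16.2% of all tested genes. Without Hal replicate 3, 56 were lower and 0 higher with limma, and with the 6 libraries alone 47 were lower and 0 higher. The medians relative to the control mean were -0.06, -0.06 and -0.04 in the Hal libraries and 0.47, 0.47 and 0.44 in the Pic libraries. BnaC04g06800D, described as WRKY33, had 0.437, 0.444 and 0.0329 FPKM in Hal leaves, against 6.40, 7.99 and 7.42 FPKM in Pic leaves and 1.53, 1.46 and 1.46 FPKM in control leaves. It was thus above the control in Pic leaves and below it in Hal leaves (log2 fold change -2.68, SE 0.15, limma adjusted p = 2.38e-12, -2.52 without Hal replicate 3). BnaC09g36400D had no read in any Hal library, 9.19, 6.17 and 6.37 FPKM in Pic leaves and 0.438, 0.285 and 0.253 FPKM in control leaves, at least 155-fold lower in Hal than in Pic leaves against a floor of 3 reads over the Hal group. At a higher level, BnaA01g13440D, chosen after its values were seen, had 7.68, 7.50 and 8.35 FPKM in Hal leaves, 24.6, 28.8 and 21.8 FPKM in Pic leaves and 7.64, 6.93 and 7.75 FPKM in control leaves.

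Defence proteins followed the same order in several genes. The gene described as PR-1a, BnaA03g38630D, encodes a small secreted protein that marks salicylic acid responses, and it had 36.2, 38.1 and 37.8 FPKM in Hal leaves, against 385, 357 and 324 FPKM in Pic leaves and 74.1, 65.6 and 73.0 FPKM in control leaves. The 3 groups did not overlap, with Hal leaves below and Pic leaves above the control (log2 fold change -3.21, SE 0.08, limma adjusted p = 1.31e-19, -3.22 without Hal replicate 3). The thaumatin domain gene BnaA06g13410D, of the PR-5 type, had 8.44, 9.001 and 8.70 FPKM in Hal leaves, 65.7, 79.1 and 72.4 FPKM in Pic leaves and 2.32, 2.33 and 2.94 FPKM in control leaves (log2 fold change -2.91, SE 0.15). Here both herbicide groups exceeded the control. Of the 46 tested genes of the list of pathogenesis-related proteins, 15 were lower (32.6%, beside 11.2% of all genes) and 4 higher (8.70%, beside 9.04%). In the shifted segments lay 9 of the 46. Of 132 immune receptor genes with TIR or NB-ARC domains, 25 were lower (18.9%) and 7 higher (5.30%). Without Hal replicate 3 these were 18 and 3, beside 10.5% lower and 7.52% higher among all genes. With the 6 libraries alone they were 9 and 1, beside 6.04% and 4.13%. BnaA09g13280D of this list had 5.38, 6.29 and 6.50 FPKM in Hal leaves, 28.2, 24.7 and 23.4 FPKM in Pic leaves and 5.37, 5.66 and 5.53 FPKM in control leaves (log2 fold change -1.90, SE 0.15).

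Among the other transcription factors, the bHLH gene BnaC03g01590D had the second smallest log2 fold change of the described genes. It had 0.288, 0.475 and 0.845 FPKM in Hal leaves, against 23.4, 22.5 and 19.97 FPKM in Pic leaves and 1.58, 1.04 and 1.74 FPKM in control leaves (log2 fold change -3.92, SE 0.20, limma adjusted p = 6.18e-13). BnaCnng57560D, of the same family, had no read in Hal leaves, 12.6, 11.7 and 8.70 FPKM in Pic leaves and 0.291, 0.227 and 0.546 FPKM in control leaves, at least 198-fold lower in Hal than in Pic leaves against a floor of 3 reads over the Hal group. Over the family, 29 of 179 tested genes were lower (16.2%) and 4 higher (2.23%), and 23 and 3 without Hal replicate 3. Of 134 NAC factors 32 were lower (23.9%) and 2 higher (32 and 1 without Hal replicate 3), and BnaC09g47250D had 1.47, 1.92 and 1.86 FPKM in Hal leaves, 12.1, 13.1 and 10.4 FPKM in Pic leaves and 4.58, 3.83 and 3.96 FPKM in control leaves (log2 fold change -2.22, SE 0.14). The homeobox list had 20 lower (17.9%) and 5 higher of 112, and 22 and 2 without Hal replicate 3. The MYB list had 37 lower (12.4%) and 21 higher of 298, the bZIP list 16 lower (10.7%) and 6 higher of 149, and the GRAS and TCP list 12 lower (10.7%) and 4 higher of 112, which is close to the 11.2% lower among all genes. Their shares of higher members were 7.05%, 4.03% and 3.57%, below the 9.04% of all genes. Without Hal replicate 3 the lower and higher counts were 27 and 14 for MYB, 15 and 6 for bZIP and 12 and 4 for GRAS and TCP. The HD-ZIP gene BnaC07g20160D was above the control after either herbicide, with 10.98, 9.37 and 11.02 FPKM in Hal leaves, 34.4, 29.1 and 26.6 FPKM in Pic leaves and 3.33, 2.54 and 4.47 FPKM in control leaves (log2 fold change -1.43, SE 0.13). The genes with the smallest p of the MYB, bZIP and TCP lists, BnaA10g00780D, BnaC03g23710D and BnaC03g03480D, had log2 fold changes of -1.38, -1.07 and -1.33.

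Enzymes that conjugate and detoxify foreign compounds were lower after Hal in large shares. Glutathione transferases couple electrophilic compounds to glutathione. Of 77 tested genes 37 were lower (48.1%, beside 11.2% of all genes) and 5 higher (6.49%, beside 9.04%). The median log2 fold change was -0.40 (37 and 3 without Hal replicate 3, median -0.45). Relative to the control mean, the median was -0.28, -0.25 and -0.14 in the Hal libraries and 0.11, -0.01 and -0.04 in the Pic libraries. The genes took different courses. The gene described as glutathione S-transferase U8, BnaC01g39170D, had 0.494, 0.0680 and 0.403 FPKM in Hal leaves, 9.77, 10.3 and 6.04 FPKM in Pic leaves and 0.639, 0.702 and 1.33 FPKM in control leaves, so that all Hal libraries were below and all Pic libraries above the control (log2 fold change -2.86, SE 0.23, limma adjusted p = 1.65e-09). BnaC02g24980D had 0, 0 and 0.278 FPKM in Hal leaves, 8.85, 7.13 and 5.58 FPKM in Pic leaves and 9.62, 9.88 and 11.5 FPKM in control leaves, so that Hal leaves were farthest from the control (log2 fold change -2.90, SE 0.13). BnaC03g30870D, chosen after its values were seen, exceeded the control after either herbicide, with 7.84, 8.01 and 6.21 FPKM in Hal leaves, 46.6, 47.1 and 42.9 FPKM in Pic leaves and 4.10, 3.24 and 4.71 FPKM in control leaves.

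Of 134 UDP-glycosyltransferases, which attach sugars to hormones and foreign compounds, 44 were lower (32.8%) and 6 higher. BnaA05g27700D had 0, 0.103 and 0 FPKM in Hal leaves, against 11.9, 11.8 and 12.7 FPKM in Pic leaves and 0.888, 1.30 and 0.757 FPKM in control leaves (log2 fold change -3.67, SE 0.14, limma adjusted p = 3.38e-15). Its Hal values rested on 3 reads. Of 255 cytochromes P450, 56 were lower (22.0%, beside 11.2% of all genes) and 26 higher (10.2%, beside 9.04% of all genes). The P450 gene BnaA03g53940D had 2.10, 1.45 and 1.43 FPKM in Hal leaves, 9.67, 10.5 and 10.2 FPKM in Pic leaves and 1.96, 2.20 and 1.93 FPKM in control leaves. Of 251 ABC and MATE transporters, 29 were lower and 28 higher, which is close to the shares over all genes. The MATE gene BnaA01g05280D was lower with a log2 fold change of -1.99 (SE 0.14). A pair of enzyme lists was formed after the values had been seen. Of 98 2-oxoglutarate oxygenases 34 were lower (34.7%) and 5 higher (5.10%), and of 29 sulfotransferases 12 were lower (41.4%) and 1 higher (3.45%). The oxygenase gene BnaC05g02440D had 0.560, 1.03 and 1.06 FPKM in Hal leaves, 20.8, 25.6 and 25.0 FPKM in Pic leaves and 0.835, 1.75 and 1.65 FPKM in control leaves (log2 fold change -3.73). The sulfotransferase gene BnaC02g35150D had 0.231, 1.00 and 2.49 FPKM in Hal leaves, 14.1, 12.7 and 11.1 FPKM in Pic leaves and 3.36, 4.37 and 4.54 FPKM in control leaves (log2 fold change -2.73, SE 0.26, -3.11 without Hal replicate 3). In these families neighbouring copies are common, and reads shared between copies make the values of single copies uncertain.

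The smallest log2 fold change of a described gene belonged to BnaC04g49280D, a cysteine synthase, which makes cysteine from O-acetylserine and sulfide. It had 2.20, 2.20 and 3.80 FPKM in Hal leaves, against 101, 89.7 and 87.3 FPKM in Pic leaves and 85.5, 81.8 and 85.4 FPKM in control leaves. All Hal libraries were far below the control, and all Pic libraries were slightly above it (log2 fold change -4.67, SE 0.11, limma adjusted p = 1.09e-19, -4.87 without Hal replicate 3). At 48 h the same gene was higher in Hal than in Pic leaves, with a log2 fold change of 2.10. A pair of thioredoxin genes, redox proteins that reduce disulfide bonds, showed another order. BnaA08g04320D had 3.78, 2.54 and 3.15 FPKM in Hal leaves, 73.6, 57.7 and 41.0 FPKM in Pic leaves and 10.7, 12.1 and 11.4 FPKM in control leaves (log2 fold change -3.79, SE 0.18). BnaCnng25840D had 1.86, 1.54 and 1.95 FPKM in Hal leaves, 25.9, 24.8 and 16.3 FPKM in Pic leaves and 3.35, 4.65 and 3.62 FPKM in control leaves (log2 fold change -3.04, SE 0.23). In both, Hal leaves were below and Pic leaves above the control. Over the list formed after the values had been seen, 5 of 22 thioredoxins were lower (22.7%, beside 11.2% of all genes). None was higher (0 of 22, beside 9.04% of all genes, and 0 also at an unadjusted p under 0.05 and with limma voom). Glutamate decarboxylase makes the stress metabolite gamma-aminobutyrate, and its gene BnaA02g26140D had 0.0321, 0.159 and 0 FPKM in Hal leaves, 8.85, 10.3 and 8.22 FPKM in Pic leaves and 0.716, 0.395 and 0.519 FPKM in control leaves (log2 fold change -3.25, SE 0.14). Of 8 alternative oxidases, which take electrons from ubiquinol in mitochondria, 5 were lower (62.5%) and 1 higher (12.5%) in a list formed after the values had been seen. The lowest, BnaCnng60000D, had 0.462, 0.609 and 1.17 FPKM in Hal leaves, 8.40, 6.64 and 8.35 FPKM in Pic leaves and 2.06, 1.27 and 0.885 FPKM in control leaves.

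Most genes of the table have no description, and they held the extremes of the comparison. These were named after their values were seen. BnaC06g26730D, a gene of 266 bases, had 0.633, 1.39 and 2.89 FPKM in Hal leaves, 142, 135 and 109 FPKM in Pic leaves and 3.27, 2.59 and 2.13 FPKM in control leaves (log2 fold change -5.70, SE 0.29). BnaA03g17040D had 11.7, 13.1 and 13.9 FPKM in Hal leaves, 0.154, 0 and 0 FPKM in Pic leaves and 2.15, 1.68 and 1.94 FPKM in control leaves (log2 fold change 3.72, SE 0.14).

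Of the photosynthesis lists, the chlorophyll a-b binding protein genes had a larger share of lower members than all genes, although their median difference was small. Of these 42 genes 10 were lower (23.8%, beside 11.2% of all genes) and 4 higher (9.52%, beside 9.04%), with a median of -0.05. Without Hal replicate 3 the counts were 10 and 2, and with the 6 libraries alone 4 and 1. BnaAnng22920D had 818, 881 and 857 FPKM in Hal leaves, against 2250, 2072 and 1821 FPKM in Pic leaves and 2520, 2520 and 2723 FPKM in control leaves (log2 fold change -1.26, SE 0.08). Of 35 photosystem and Rubisco genes 6 were lower (17.1%) and 3 higher (8.57%). The Rubisco small chain gene BnaA04g27920D had 4849, 4859 and 5630 FPKM in Hal leaves, 3668, 3643 and 3449 FPKM in Pic leaves and 4808, 4593 and 4847 FPKM in control leaves (log2 fold change 0.51, SE 0.07). The superoxide dismutase gene BnaA01g14450D had 297, 310.3 and 292 FPKM in Hal leaves, 117, 117 and 117 FPKM in Pic leaves and 415, 434 and 415 FPKM in control leaves, so that both herbicide groups were below the control and Pic leaves farther (log2 fold change 1.35, SE 0.06). Its list of peroxidases, catalases and dismutases had 7 higher (9.86%) and 9 lower (12.7%) of 71, which is close to the shares over all genes. Of 96 heat shock factors and HSP70 genes 28 were lower (29.2%) and 9 higher (9.38%). The HSP70 gene BnaA10g27060D had 10.7, 8.96 and 9.26 FPKM in Hal leaves, 44.7, 34.6 and 38.6 FPKM in Pic leaves and 32.4, 31.97 and 33.9 FPKM in control leaves.

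Genes of growth and the cell wall gave mixed counts. Of 63 xyloglucan enzymes and expansins, which loosen the wall, 20 were lower (31.75%) and 9 higher (14.3%), and without Hal replicate 3 these were 20 and 4. Of 70 pectin enzymes 12 were lower (17.1%) and 6 higher (8.57%). The pectinesterase gene BnaAnng20820D had 6.42, 7.03 and 4.28 FPKM in Hal leaves, 28.3, 25.3 and 26.8 FPKM in Pic leaves and 10.7, 10.1 and 10.01 FPKM in control leaves (log2 fold change -2.03, SE 0.14). The expansin gene BnaC06g30760D was higher, with 41.6, 39.8 and 42.6 FPKM in Hal leaves, 25.3, 23.9 and 20.7 FPKM in Pic leaves and 39.3, 37.4 and 42.6 FPKM in control leaves, and it lay in a shifted segment of C06. Of 97 cell cycle and replication genes 12 were higher (12.4%, beside 9.04% of all genes) and 1 lower (1.03%, beside 11.2%). Without Hal replicate 3 these were 8 and 1, and with the 6 libraries alone 3 and 1. The lower member in the main fit was the cyclin gene BnaA04g25830D (log2 fold change -1.07, SE 0.15). Of 206 tubulin, actin and kinesin genes 18 were higher (8.74%, beside 9.04% of all genes) and 4 lower (1.94%, beside 11.2%), and the gene described as Actin2.2, BnaA01g26500D, was among the lower ones with 23.7, 23.7 and 22.5 FPKM in Hal leaves, 83.3, 84.7 and 81.0 FPKM in Pic leaves and 44.7, 46.7 and 46.2 FPKM in control leaves (log2 fold change -1.79, SE 0.08). Of 119 histone genes 10 were higher (8.40%) and 6 lower (5.04%), which became 4 and 9 without Hal replicate 3. The histone H3 gene BnaCnng17200D had 3.71, 3.59 and 5.399 FPKM in Hal leaves, 14.9, 13.2 and 12.2 FPKM in Pic leaves and 6.99, 6.12 and 9.10 FPKM in control leaves.

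The remaining lists are given with 9.04% higher and 11.2% lower over all genes as their background. Of 12 lipid-transfer protein genes 2 were higher and 0 lower (1 lower at an unadjusted p under 0.05, 0 with limma voom), and without Hal replicate 3 these were 1 and 1. Of 37 starch, sucrose and trehalose genes 6 were higher and 5 lower (7 and 3 without Hal replicate 3), and of 74 mitochondrial genes 8 were higher and 2 lower (10 and 4 without Hal replicate 3). Of 17 phenylpropanoid and flavonoid genes 6 were lower (35.3%) and 1 higher (5 and 0 without Hal replicate 3), and the chalcone synthase domain gene BnaA10g19670D had 4.28, 6.34 and 6.79 FPKM in Hal leaves, 16.0, 16.1 and 16.1 FPKM in Pic leaves and 15.6, 15.1 and 16.4 FPKM in control leaves (log2 fold change -1.35, SE 0.12). Of 30 calcium and calmodulin genes 7 were lower (23.3%) and 0 higher (1 higher at an unadjusted p under 0.05, 0 with limma voom), and of 461 ubiquitin and proteasome genes 48 were lower (10.4%) and 19 higher (4.12%). The lipid-transfer gene BnaA04g22070D, the beta-amylase gene BnaC01g21190D and the succinate-CoA ligase gene BnaAnng06200D had log2 fold changes of 0.82, 0.89 and 0.71, and the EF-hand gene BnaA09g03360D of -1.42. The single aquaporin gene of the table was not tested.

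Some differences lay side by side on the chromosomes. In the order of the gene numbers in the IDs, 413 windows of neighbouring tested genes, mostly 100 each, were formed, and 13 of them had a median of 0.25 or more, or of -0.25 or less. Of these, 6 lay on C06, all higher after Hal, 6 on A07 and 1 on C03, all lower. They held 1270 genes, of which 45.0% were called, beside 19.6% outside them. From BnaC06g28740D to BnaC06g38760D, 225 of 500 genes were higher and 20 lower, with a median of 0.43 (0.40 without Hal replicate 3). From BnaA07g28130D to BnaA07g34480D, 178 of 400 genes were lower and 5 higher, with a median of -0.39 (-0.40 without Hal replicate 3). The stretches were chosen for their medians, so these counts are a description.

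The libraries of a group lay close together in these segments. In the C06 stretch the medians relative to the control mean were 0.004, -0.002 and 0 in the Hal libraries and -0.41, -0.42 and -0.43 in the Pic libraries. In the A07 stretch they were -0.04, -0.02 and -0.003 in the Hal libraries and 0.37, 0.38 and 0.37 in the Pic libraries. The median over the C06 stretch joins windows in which the Hal libraries lay above the control, such as 0.22, 0.22 and 0.16 from BnaC06g30900D to BnaC06g32950D, and windows in which they lay below it, such as -0.14, -0.14 and -0.13 from BnaC06g35160D to BnaC06g36850D. The A07 stretch also joins unlike windows. The Hal libraries were at -0.18, -0.22 and -0.19 from BnaA07g28130D to BnaA07g29650D, and at 0.07, 0.06 and 0.03 from BnaA07g32890D to BnaA07g34480D. Before the A07 stretch, in the window from BnaA07g20320D to BnaA07g22060D, it was the Hal libraries that were away from the control, with -0.33, -0.28 and -0.27, against -0.003, -0.02 and -0.02 in the Pic libraries. From BnaA07g26230D to BnaA07g28110D the Hal libraries had -0.21, -0.24 and -0.24, and the Pic libraries 0.04, -0.02 and -0.01. At later harvests the medians of Hal minus Pic were 0.52 at 48 h and -0.41 at 96 h for the C06 stretch, and -0.24 at 48 h and 0.31 at 96 h for the A07 stretch. Gene copy number in the plants of each group was not tested. Only 6.08% of all calls lay in the 13 windows, and 8836 calls remained outside them. Of the 63 genes named by the rule, 2 lay inside, the expansin gene above and the Skp1 domain gene BnaA07g21520D of the ubiquitin list (log2 fold change -1.03, SE 0.11).

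**Figure D4:**
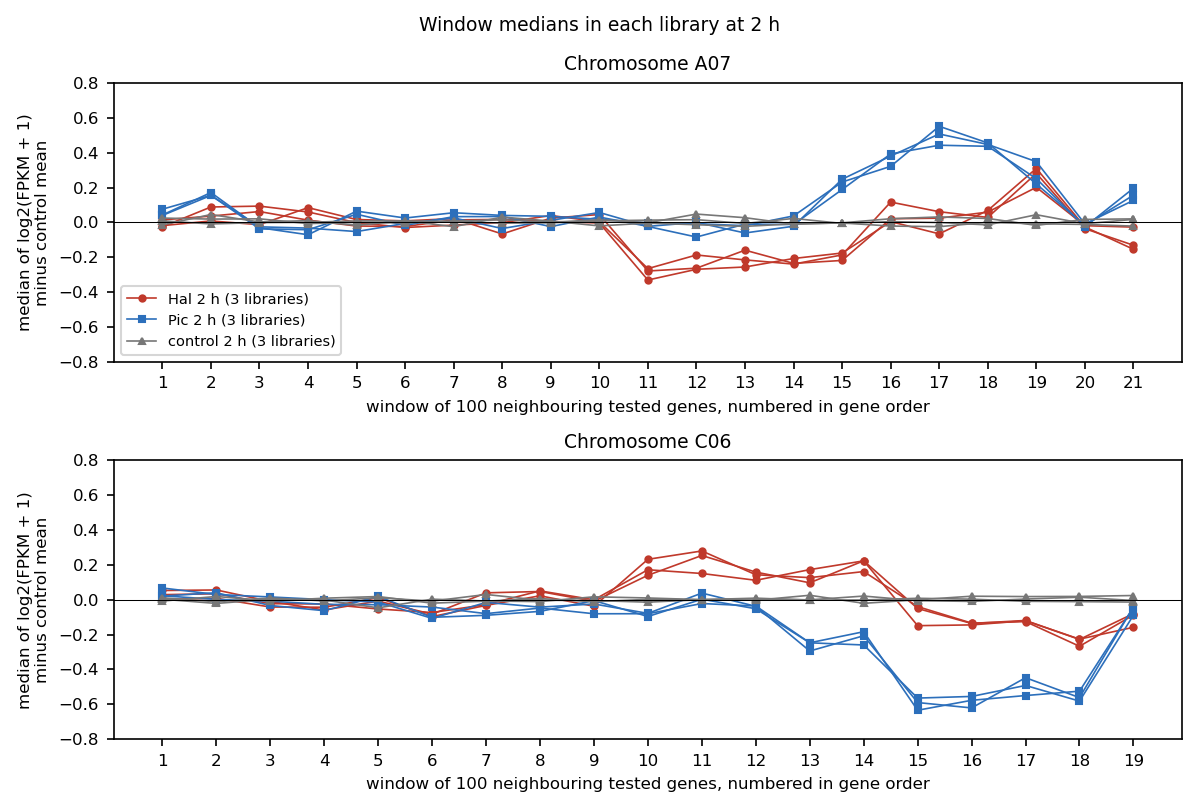
Median of log2(FPKM + 1) minus the control mean in windows of 100 neighbouring tested genes along chromosomes A07 and C06, one line a library at 2 h (Hal circles, Pic squares, control triangles). On A07 the Pic libraries lie above the others from window 15 to window 18, and on C06 they lie below the others from window 13 to window 18.

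The differences of the 2 h harvest mostly did not persist. The leaves of 48 and 96 h gave separate libraries, and Hal and Pic differed there in 31.4% of all tested genes at 48 h (14.6% higher, 16.8% lower) and in 45.0% at 96 h (23.0% higher, 22.0% lower). Of the 9408 genes called at 2 h, 3214 (34.2%) had the same direction at 48 h and 2597 (27.6%) at 96 h. Of the 36987 genes not called at 2 h, 45.8% had the same direction at 48 h and 42.4% at 96 h. With calls at both harvests, 1487 genes had the same and 3560 the opposite direction at 48 h, and 1306 had the same and 4882 the opposite direction at 96 h. Without Hal replicate 3 at 2 h, 35.7% had the same direction at 48 h and 26.8% at 96 h. PR-1a (BnaA03g38630D) had a log2 fold change of -3.21 at 2 h, 5.14 at 48 h and 3.07 at 96 h. The WRKY list had 61 genes higher and 2 lower after Hal than after Pic at 48 h, and 74 higher and 1 lower at 96 h. The ribosomal protein list had 5 higher and 179 lower at 48 h, and 3 higher and 196 lower at 96 h. Of the 8 ferritin genes, 1 was higher and 6 lower at 48 h, and 8 were lower at 96 h (0 higher).

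**Figure D5:**
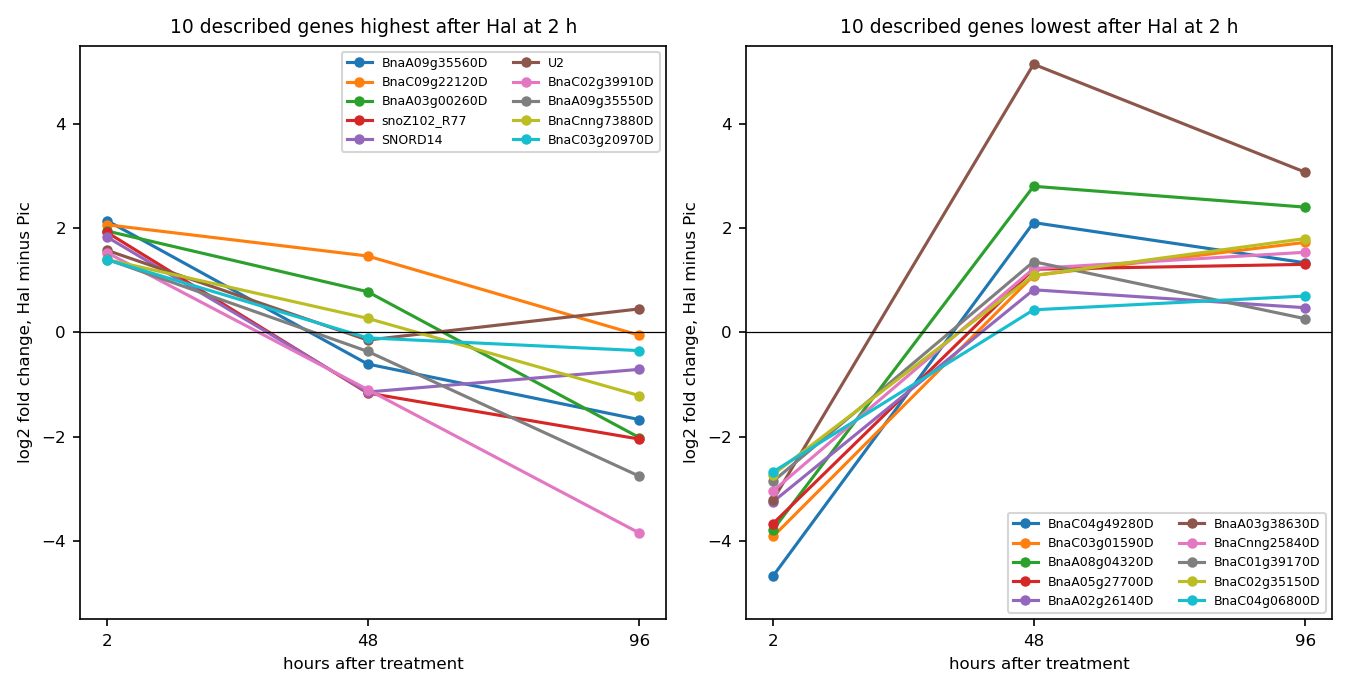
Log2 fold change of Hal minus Pic at 2, 48 and 96 h after treatment for the 20 described genes named by rank, one line a gene. The 10 genes lowest after Hal at 2 h (right) are all above 0 at 48 h and at 96 h, and of the 10 highest genes (left) only BnaC09g22120D, BnaA03g00260D and BnaCnng73880D are above 0 at 48 h.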

How the data were processed

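The authors deposited an FPKM value for each of 104573 genes in 27 libraries, with gene lengths, some descriptions and protein domains. The submitters' notes name CASAVA, HISAT2, StringTie, DESeq2, edgeR and GATK without versions or roles, and the genome build and the treatment of multi-mapping reads are not given in the sources used here. Multiplied by gene length, the deposited FPKM values are whole multiples of a step in each library, so reads were worked back (100% whole within 0.01). The 46395 genes with FPKM of at least 1 in at least 3 libraries were compared as log2(FPKM + 1) in a linear model over 9 groups with limma 3.58.1 (R 4.3.3), a variance trend on mean expression and Benjamini-Hochberg adjustment, two-sided at 0.05. Pearson's r is across genes, which are not independent replicates.

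Gene lists were formed from words in descriptions (4214 tested genes) and from domains (16399 tested genes). The members, the lists and the tests were chosen with earlier results of these data known, and a few lists only after the values of this comparison had been seen, as stated there. Named genes are the 10 largest and 10 smallest log2 fold changes among called, described genes with non-overlapping groups whose call held without Hal replicate 3, and in each list the gene of smallest p under the same conditions. Other genes, including those from lists formed afterwards, were picked with their values in view. No list was tested as a set.

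Same-numbered Hal and Pic libraries did not deviate together (residual r -0.21 to -0.02 at 2 h), so numbers were not treated as pairs. The alternatives were a pseudocount of 0.1, other filters on low values, median-ratio scaling, equal totals, the 6 libraries alone, the replicate number as a block, voom on worked-back reads, array weights, a log2 fold change of at least 1, each library left out in turn, other window sizes, and, added after seeing the data, the 5 libraries without Hal replicate 3 and the genes outside shifted windows. The planned promoter motif search was not run, since no sequences were at hand. On simulated counts for 46395 genes, of which 200 were changed in the Hal against Pic contrast at 2 h, the fit found 86% of genes raised 2-fold, 70% of genes lowered to 0.5 and 100% of those changed 4-fold, with 5 false calls. The simulation used the same dispersion for every gene and changed only genes above a minimum of reads. It held no library that deviated as Hal replicate 3 did. These figures are therefore not the error rates of the real comparison. Tables and figures were made with Python 3.11.15, pandas 2.3.3, numpy 2.4.6 and matplotlib 3.10.9.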

Additional observations from a re-analysis of the deposited data

Results flagged for a closer look

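For 19 of the 20 described genes named by rank, the log2 fold change of Hal minus Pic at 2 h differed from that at 48 h in limma's test of the difference (adjusted p under 0.05), and in 17 of the 19 the sign at 48 h was the opposite. Among the genes higher after Hal at 2 h, the value at 2 h minus the value at 48 h was 2.75 for BnaA09g35560D, 1.16 for BnaA03g00260D and 1.76 for BnaA09g35550D (ferritins), 2.62 for BnaC02g39910D (tubulin alpha chain), 1.13 for BnaCnng73880D (nucleoside diphosphate kinase) and 1.499 for BnaC03g20970D (ribosome biogenesis). It was 3.08 for snoZ102_R77, 2.97 for SNORD14 and 1.72 for U2, which rest on few reads. Among the genes lower after Hal at 2 h, the difference was -6.78 for BnaC04g49280D (cysteine synthase), -5.00 for BnaC03g01590D (bHLH), -6.59 for BnaA08g04320D and -4.26 for BnaCnng25840D (thioredoxins), -4.88 for BnaA05g27700D (glycosyltransferase) and -4.07 for BnaA02g26140D (glutamate decarboxylase). It was -8.35 for BnaA03g38630D (PR-1a), -4.21 for BnaC01g39170D (glutathione transferase), -3.82 for BnaC02g35150D (sulfotransferase) and -3.11 for BnaC04g06800D (WRKY33). The genes had been ranked by their 2 h values, which enter this difference, so the size at 2 h is not independent of the choice. The values at 48 h come from separate libraries, and 12 of the 20 genes were called there in the opposite direction.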

How the results depend on the processing

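The counts of differing, higher and lower genes (9408, 4194 and 5214) became 4717, 1914 and 2803 with the 6 compared libraries alone and 4859, 1887 and 2972 with the 5 libraries left without Hal replicate 3, where fewer samples set the spread. When a size of 1 or more was also asked of the log2 fold change they were 1643, 348 and 1295, and of the genes so called 454 had the same direction at 48 h and 372 at 96 h. Leaving out each library in turn gave between 7331 and 8500 differing genes. The replicate number as a block gave 8480 (3687 higher, 4793 lower) and changed no call of a named gene. Other settings stayed within 1.5 times of the main counts, from 6688 genes with FPKM of at least 5 to 12761 with array weights. Windows of 50 genes gave 30 shifted windows and windows of 200 genes gave 6. Over the genes named by rule and the ferritins, 1148 checks kept the direction, and in 26 of them the threshold was missed, of which 15 came from the fold minimum. The counts of higher and lower members of the gene lists were less stable, and 1451 of 1872 stayed within 1.5 times of the main count. Of the 104 counts in each setting, this held for 18 with the fold minimum, 42 with the 6 libraries alone, 43 with the 5 libraries, 67 with FPKM of at least 5, 74 with array weights and 84 without Hal replicate 3. The depth of 15565637 to 19692242 reads limits genes of few reads, such as the short RNAs.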
